A study of Mus musculus with 2 samples.

Results

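Potassium channel genes were compared between 1 library of MALAT1-knockdown C3H10 cells and 1 library of control cells. The genes were all symbols beginning with Kcn in the count table, without the antisense and overlapping transcripts named after them, and they were chosen by their counts: 32 of the 94 Kcn genes in the table reached a sum of 10 counts and were kept. Over the whole table, 17356 of 46095 genes passed the same minimum. C3H10 is a mouse mesenchymal cell line that forms adipocytes when induced, and GEO's labels list its strain as C57BL/6. Control cells received 100 nM of a negative control antisense oligonucleotide (ASO NC), a short strand that should cleave no transcript, and MALAT1-knockdown cells received 100 nM of an ASO against Malat1 (ASO MALAT1). Cells of either kind were then induced with isobutyl-1-methylxanthine, dexamethasone, troglitazone and insulin for 2 days, kept on insulin, and collected at the sixth day. Which ASO against Malat1 was sequenced is not given in the sources used here. Since each condition is 1 library of 1 line, no difference has a replicate check, and no test of the conditions was made.

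Potassium channels let potassium ions leave or enter the cell and so set its membrane voltage. Pore-forming subunits assemble around a central pore; voltage-gated channels open when the membrane depolarizes, inward rectifiers pass current mainly near rest, tandem-pore (K2P) channels carry a steady leak, and a further class opens when calcium or sodium rises inside the cell. Auxiliary subunits do not form the pore but change how the pore-forming subunits open or reach the membrane. In adipose cells, potassium channels are known for setting the resting voltage, which bears on calcium entry and on proliferation of precursors.

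Malat1 was lower in the library labelled as its knockdown, at 170402 counts with ASO NC and 45396 with ASO MALAT1, a log2 ratio of -2.01. All log2 ratios are MALAT1-knockdown over control after TMM scaling of the library sizes, with a prior count of 0.5, and the 95% Clopper-Pearson intervals cover counting error only. Where 2 values stand together without a group name, that of ASO NC comes first. Depth was 58147539 counts with ASO NC and 61653549 with ASO MALAT1. A gene listed at 0 counts could have up to 3 counts, which is 0.0520 CPM (the usual depth-scaled count, here on TMM-scaled totals) in control cells and 0.0483 CPM in knockdown cells. Of the mature adipocyte markers, 11 of 12 were kept and 9 were lower by more than 2-fold, against 6.02% of all genes kept. The summed level of these markers was 6026 CPM with ASO NC and 2344 CPM with ASO MALAT1. Lep, the leptin gene, had 1 and 0 counts. The 9 fibroblast markers summed to 11337 CPM and 12476 CPM, mostly from Col1a1, Col1a2 and Col3a1. By gene, 6 had a higher and 3 a lower point value, and log2 ratios included 1.73 for Cd34, -0.88 for Dcn and -0.99 for Lum. Among markers of other cells, the smooth muscle list (5 of 6 kept, Cnn1 at 0) had 381 and 436 CPM, carried by Acta2 and Smtn while its median log2 ratio was -0.47, and the osteoblast and chondrocyte list (3 of 6 kept, Acan at 0) had 121 and 173 CPM. The neuron list (4 of 6 kept, Stmn2 at 0) had 22.1 and 34.1 CPM, nearly all from Map2. The skeletal muscle (1 of 6 kept, with Acta1, Myod1 and Myog at 0), endothelial (3 of 5 kept) and macrophage (2 of 5 kept, with Adgre1, Itgam and Ptprc at 0) lists each stayed under 2 CPM in both libraries. The part of these cell types in the differences given here was not tested. In bulk RNA, fewer cells of a type and less RNA per cell cannot be told apart.

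Potassium channel genes were weakly expressed in both libraries. Of the 94 genes, 45 had 0 counts in both and 17 more had 1 to 9 counts in all, which left the 32 genes described here. The median of the 32 genes kept was 52 summed counts, while that of all genes kept was 1688.5. Just inside the minimum lay Kcnh2 with 14 counts, and just outside lay Kcnj12 with 9 and Kcnv2 with 8. Per kb of exon, the median level was 0.142 CPM with ASO NC and 0.116 CPM with ASO MALAT1, against 4.50 and 4.49 over the 15317 genes with an exon length. No potassium channel gene reached the control median of those genes. Together the 32 genes took 4099 counts with ASO NC and 4229 with ASO MALAT1. Their summed level was 71.0 CPM with ASO NC and 68.1 CPM with ASO MALAT1, a log2 ratio of -0.06 (95% interval -0.12 to 0.00). Few genes carried this sum: the 5 most counted, Kcnip3, Kcnn1, Kcnd1, Kcnn4 and Kcnj2, held 53.9% of the counts with ASO NC and 63.2% with ASO MALAT1.

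Gene by gene, more potassium channel genes were lower than higher in MALAT1-knockdown cells. The point value was lower in 21 of the 32 genes and higher in 11, and the median log2 ratio was -0.45, against -0.0029 over all genes kept. The median was -0.22 over the 26 genes with at least 10 counts in each library and -0.21 over the 15 with at least 100 summed counts. At 2-fold or more, 9 of the 32 were lower (28.1%) and 3 were higher (9.38%), while 6.02% of all genes kept were lower and 3.91% higher. The lower genes included Kcnc2, Kcnh2, Kcnj8, Kcnk3, Kcnip2 and Kcnrg, and the 3 higher genes were Kcnj16, Kcnf1 and Kcnmb4. The 95% interval lay clear of 0 on the lower side for 14 genes and on the higher side for 6, where 26.4% and 26.7% of all genes kept did so, and it held 0 for the remaining 12. These genes were picked with the results of this comparison known, so the shares describe the libraries and support nothing further.

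Most of these genes rested on few counts. Of the 32, 17 had fewer than 100 summed counts, and 6 had fewer than 10 counts in at least 1 library. Those 6, among them Kcnj16, Kcnh2, Kcnj8 and Kcnrg, were all among the 12 past 2-fold, and a gene with so few counts in 1 library was kept mainly through its counts in the other. Of all 2014 genes kept with fewer than 10 counts in a library, 30.9% were lower and 24.6% higher by at least 2-fold, so that passing 2-fold was common at such counts. Among the 17 genes with 10 to 99 summed counts, 6 were lower (35.3%) and 2 higher (11.8%) by at least 2-fold, while 19.5% and 14.7% of all genes in that range were. Their median log2 ratio was -0.79, against -0.10 for all genes in that range. Among the 13 genes with 100 or more but under 1000 summed counts, 3 were lower (23.1%) and 1 higher (7.69%), against 4.37% and 1.74% of all genes in that range, and the medians were -0.39 and -0.05. Kcnip3 and Kcnn1 were the only ones of the 32 with 1000 or more, and both lay within 2-fold.

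**Figure D1:**
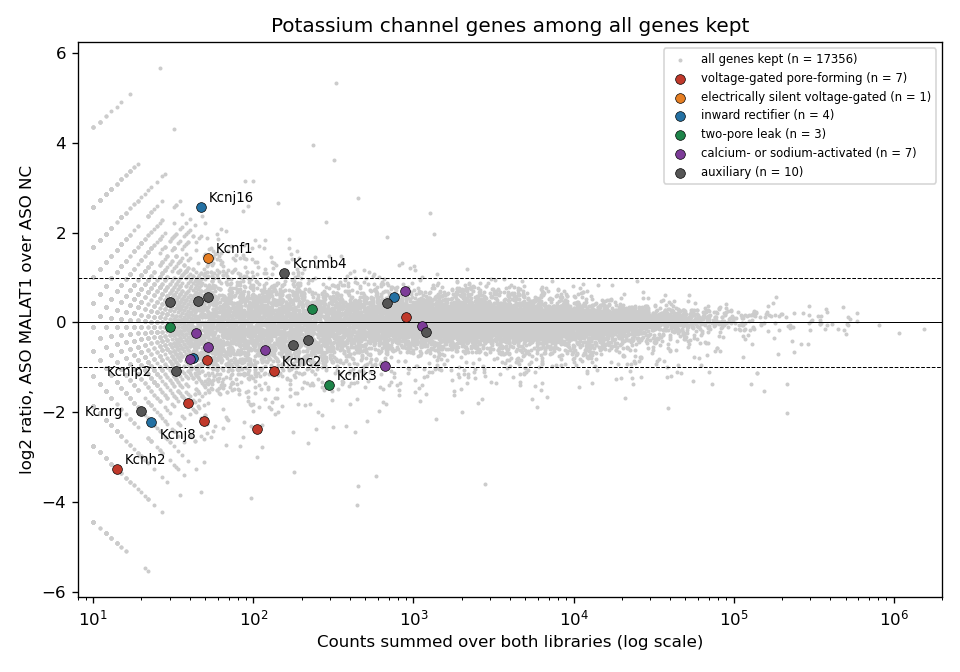
Each point is a gene kept, with counts summed over both libraries on a log x axis and the log2 ratio of ASO MALAT1 over ASO NC on the y axis; grey points are all 17356 genes, coloured points the 32 potassium channel genes by class, and dashed lines mark 2-fold. The coloured points sit toward the left, with a median of 52 summed counts, and 9 lie below the lower line against 3 above the upper one.

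The voltage-gated pore-forming subunits were mostly lower. Of 30 such genes in the table, 15 had 0 counts in both libraries and 7 were kept. Of these 7, 5 were lower by at least 2-fold and 0 higher, with a median log2 ratio of -1.79. Of all genes kept, 6.02% were lower and 3.91% higher, and of those with 10 to 99 summed counts, 19.5% and 14.7%. The median of the 7 genes was 51 summed counts. Kcnc2, a fast channel that repolarizes rapidly firing neurons, had 89 counts with ASO NC and 45 with ASO MALAT1, a log2 ratio of -1.08 (95% interval -1.64 to -0.56). Kcnh2, the cardiac channel behind a class of long QT syndromes, had 13 counts with ASO NC and 1 with ASO MALAT1, and its log2 ratio of -3.26 had an interval from -9.22 to -1.07. Kcna6, of the Shaker family, had 32 and 19 counts, and its interval held 0 (-1.76 to 0.00). The most counted gene of this class had an interval that held 0. Kcnd1, a transient A-type channel, had 415 counts with ASO NC and 489 with ASO MALAT1, a log2 ratio of 0.13 (-0.06 to 0.32). It lies on chromosome X between Gripap1 and Otud5, whose log2 ratios were 0.01 and 0.03. Kcnd1 held most of the counts of this class, and the class summed to 12.3 CPM with ASO NC and 9.50 CPM with ASO MALAT1, a log2 ratio of -0.37.

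Electrically silent subunits form no channel alone and modify other voltage-gated subunits. Of 10 such genes, 1 was kept. Kcnf1 had 13 counts with ASO NC and 39 with ASO MALAT1, a log2 ratio of 1.44 (0.54 to 2.51). Per kb of exon, Kcnf1 stood at 0.0470 CPM with ASO NC and 0.131 CPM with ASO MALAT1, against the direction of most voltage-gated pore-forming genes.

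Inward rectifiers lay on both sides. Of 15 genes, 7 had 0 counts in both libraries and 4 were kept, and the class summed to 5.91 CPM with ASO NC and 8.47 CPM with ASO MALAT1. Kcnj2, the strong rectifier that holds the resting voltage of many cells, had 290 and 465 counts, a log2 ratio of 0.57 (0.36 to 0.79). Kcnj16 had 6 and 41 counts, a log2 ratio of 2.57 (1.42 to 4.19), which was the highest of all 32 genes. Kcnj10, with which Kcnj16 is known to form channels in kidney and glia, had 0 counts in both libraries. The pair Kcnj16 and Kcnj2 lie side by side on the plus strand of chromosome 11, from 110968033 to 111027968 and from 111066164 to 111076821 in the GENCODE M21 annotation of GRCm38, 38.2 kb apart. Both were higher in knockdown cells. Map2k6, the nearest kept gene upstream of them at 442.5 kb, had 458 and 638 counts, a log2 ratio of 0.37. Gm11677, the nearest kept gene on the other side at 647.8 kb, was lower, with 26 and 13 counts and a log2 ratio of -1.08 (-2.19 to -0.09).

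Kcnj8, the pore subunit of ATP-sensitive channels in vascular muscle, had 19 counts with ASO NC and 4 with ASO MALAT1, a log2 ratio of -2.21 (-4.37 to -0.77). Abcc9, the sulfonylurea receptor that completes this channel, is the nearest kept gene 16.2 kb away on chromosome 6. It had 12 counts with ASO NC and 1 with ASO MALAT1, and its log2 ratio of -3.15 had an interval from -9.11 to -0.93. Pore and receptor genes were both lower, each on very few counts. With so few counts with ASO MALAT1, both could be kept only through those with ASO NC. Their shared direction therefore supports nothing further. Kcnj11 was listed at 0 in both libraries, and Abcc8, its usual partner in pancreatic beta cells, had 0 and 4 counts. Kcnj14 had 26 and 16 counts, and its interval held 0 (-1.80 to 0.15).

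The promoters of the 3 genes that were higher by at least 2-fold are shown, with that of Kcnj2 for its place beside Kcnj16. Other higher genes, such as Kcnn4 and Kcnab2, are not shown. Lower genes are not shown either. Among them, Kcnh2 and Kcnj8, with log2 ratios of -3.26 and -2.21, differed more than Kcnmb4 at 1.10. The sequences are from RefSeq (GRCm38.p6), which held 41 promoter windows for 23 of the 32 genes, and each runs 5′ to 3′ on the gene's strand over 300 bases, with positions counted from the transcription start as 0. For Kcnj16 the most upstream of its 4 starts is shown. Capitals mark matches on either strand to any of 6 motifs, a search made after the counts had been seen; no matches overlap within these 4 windows. The motif AGGTCA is the hexamer read by nuclear receptors such as PPAR-γ, AGAACA is that read by the glucocorticoid receptor, and TGACGTCA is the cAMP response element. The others are common promoter elements, the TATA box TATAAA, the GC box GGGCGG and the CCAAT box.
Kcnj16, chr11:110967783-110968082, plus strand: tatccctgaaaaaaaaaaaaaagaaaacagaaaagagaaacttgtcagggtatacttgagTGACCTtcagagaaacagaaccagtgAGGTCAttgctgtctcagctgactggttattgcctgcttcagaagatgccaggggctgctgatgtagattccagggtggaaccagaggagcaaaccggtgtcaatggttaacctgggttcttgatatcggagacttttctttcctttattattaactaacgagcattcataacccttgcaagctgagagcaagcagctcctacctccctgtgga
Kcnf1, chr12:17176839-17177138, minus strand: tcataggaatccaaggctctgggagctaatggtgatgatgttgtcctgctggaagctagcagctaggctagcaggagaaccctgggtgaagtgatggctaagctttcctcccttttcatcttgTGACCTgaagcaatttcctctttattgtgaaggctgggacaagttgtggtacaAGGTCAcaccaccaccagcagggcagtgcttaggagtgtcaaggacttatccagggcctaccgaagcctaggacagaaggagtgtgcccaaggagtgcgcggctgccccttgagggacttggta
Kcnj2, chr11:111065914-111066213, plus strand: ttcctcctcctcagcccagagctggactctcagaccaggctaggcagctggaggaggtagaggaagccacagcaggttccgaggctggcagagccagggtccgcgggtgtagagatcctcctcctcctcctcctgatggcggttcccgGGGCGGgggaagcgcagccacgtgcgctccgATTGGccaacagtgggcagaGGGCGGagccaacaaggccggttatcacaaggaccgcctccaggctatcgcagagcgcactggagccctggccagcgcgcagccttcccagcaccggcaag
Kcnmb4, chr10:116473474-116473773, minus strand: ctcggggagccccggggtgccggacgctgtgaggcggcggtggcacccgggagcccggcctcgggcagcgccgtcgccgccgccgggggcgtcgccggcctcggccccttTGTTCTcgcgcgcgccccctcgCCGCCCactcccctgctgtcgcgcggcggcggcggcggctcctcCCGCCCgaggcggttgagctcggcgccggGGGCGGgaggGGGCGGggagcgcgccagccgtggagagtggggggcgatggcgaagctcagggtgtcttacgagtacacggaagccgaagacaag

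The Kcnj16 window held AGGTCA on the minus strand at -190 and on the plus strand at -164. The Kcnf1 window held it in the same order of strands, at -127 and at -74, but with a wider spacing. Of the Kcnj16 windows, only the one shown held this hexamer. The shares given here are per window, so a gene with several starts had several chances of a match. AGGTCA was found in 3 of the 41 windows of the potassium channel genes (7.32%), the third being one of Kcnip4, and in 16.3% of all 32851 promoter windows of the same length, and 1.81% of those held it more than once. The Kcnj2 window had GGGCGG at -102 and -51 and CCAAT in reverse at -71. The Kcnmb4 window had GGGCGG on either strand at -118, -74, -45 and -35 and AGAACA in reverse at -140, in a sequence of 79.0% G and C. GGGCGG was found in 39.0% of the windows of the potassium channel genes and in 35.7% of all windows, and CCAAT in 36.6% and 37.4%. AGAACA was found in 9 of these windows and in 19.0% of all, and TATAAA in 4.88% and 13.6%. TGACGTCA was found in 0 of the 41 windows and in 1.79% of all. These matches describe the letters and are not binding sites.

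Of the tandem-pore leak channels, 9 of 14 had 0 counts in both libraries and 3 were kept. Kcnk3, an acid-sensitive leak channel that has been studied in brown and white adipocytes, had 210 counts with ASO NC and 86 with ASO MALAT1, a log2 ratio of -1.39 (-1.77 to -1.03). It was the only one of the 32 genes with 200 or more summed counts to differ by at least 2-fold, and its level was 38.0% of the control level. Gm9899, a transcript annotated on the opposite strand of the Kcnk3 locus, had 40 and 7 counts, a log2 ratio of -2.54 (-4.02 to -1.45). Whether the counting used strand is not given in the sources used here, so reads of Kcnk3 and Gm9899 cannot be told apart where they overlap. The adipocyte markers had a median log2 ratio of -1.37, close in size to that of Kcnk3. Kcnk2, a stretch-sensitive leak channel, had 100 and 133 counts, a log2 ratio of 0.30 (-0.08 to 0.69). Kcnk4 had 15 counts in each library (-1.24 to 1.03).

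**Figure D2:**
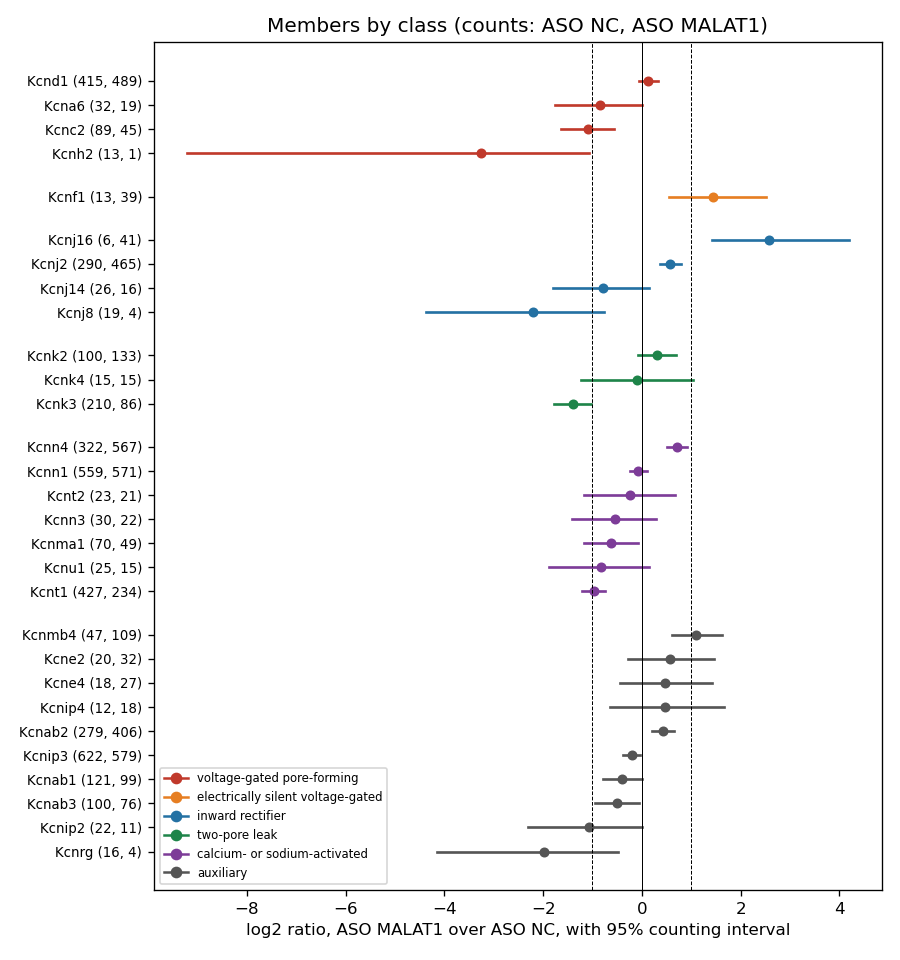
Points are the log2 ratios of ASO MALAT1 over ASO NC for 29 of the 32 potassium channel genes, lines their 95% counting intervals, and colours their classes, with raw counts in ASO NC and then ASO MALAT1 after each name; dashed lines mark 2-fold. Of the 4 voltage-gated pore-forming genes drawn, 2 lie left of the lower line, while none of the 7 calcium- or sodium-activated genes passes either line; the widest line is that of Kcnh2, with 13 and 1 counts.

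Channels activated by calcium or sodium were the class with the largest share of genes kept, 7 of 8, and none differed by as much as 2-fold. Their summed level was 25.2 CPM with ASO NC and 23.8 CPM with ASO MALAT1, and the median log2 ratio was -0.54. Kcnn1, a small-conductance calcium-activated channel, had 559 and 571 counts, a log2 ratio of -0.08 (-0.25 to 0.09). Kcnn4, the intermediate-conductance channel known from activated lymphocytes and dividing fibroblasts, had 322 counts with ASO NC and 567 with ASO MALAT1, a log2 ratio of 0.71 (0.51 to 0.91). Kcnt1, a sodium-activated channel, had 427 and 234 counts, a log2 ratio of -0.97 (-1.21 to -0.74), just inside the 2-fold line. The intervals of these 3 genes, close in class and in counts, did not overlap each other, but they cover counting error only. Variation between cultures, which these libraries cannot measure, would widen them. At a preset coefficient of variation of 0.1 between cultures, that of Kcnn4 ran from 0.263 to 1.155.

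Kcnma1, the large-conductance channel opened by calcium and voltage, had 70 and 49 counts, a log2 ratio of -0.62 (-1.18 to -0.07). Kcnn3 had 30 and 22 counts, Kcnt2 had 23 and 21, and Kcnu1 had 25 and 15. All 3 had intervals that held 0. Kcnu1, a channel known from sperm, was placed in this class by its symbol, not by what opens it.

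Auxiliary subunits lay on both sides. Of 17 genes, 10 were kept, with 5 point values higher and 5 lower, 2 intervals above 0 and 5 below, and 1 gene higher and 2 lower by at least 2-fold. They had a median log2 ratio of 0.11 and a summed level of 21.8 CPM with ASO NC and 21.9 CPM with ASO MALAT1. Kcnmb4, a beta subunit of the Kcnma1 channel, had 47 counts with ASO NC and 109 with ASO MALAT1, a log2 ratio of 1.10 (0.60 to 1.63), while Kcnma1 itself was lower. The other beta subunits of that channel, Kcnmb1, Kcnmb2 and Kcnmb3, had 0 counts in both libraries.

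The beta subunits of Shaker channels differed in direction. Kcnab2 had 279 and 406 counts, a log2 ratio of 0.43 (0.21 to 0.66). Nphp4, which overlaps it on the opposite strand, had 337 and 440 counts and a log2 ratio of 0.28. As for Kcnk3 and Gm9899, reads of Kcnab2 and Nphp4 cannot be told apart where they overlap. Kcnab1 had 121 and 99 counts, with a log2 ratio of -0.39 and an interval (-0.79 to -0.00) that held 0 under the other scalings, and Kcnab3 had 100 and 76 counts, with one of -0.50 (-0.95 to -0.06).

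Among the calcium-binding subunits of A-type channels, Kcnip3 was the most counted of all 32 genes, with 622 counts with ASO NC and 579 with ASO MALAT1, a log2 ratio of -0.21 (-0.38 to -0.04). Kcnip3 is also known as a transcriptional repressor. Kcnip2 had 22 and 11 counts, with a log2 ratio of -1.07 and an interval (-2.30 to -0.00) that likewise held 0 under the other scalings, and Kcnip4 had 12 and 18 counts (-0.66 to 1.66). The single-span subunits Kcne2, with 20 and 32 counts, and Kcne4, with 18 and 27 counts, had intervals that held 0. Kcnrg, a soluble protein that interferes with the assembly of voltage-gated channels, had 16 and 4 counts, a log2 ratio of -1.97 (-4.15 to -0.47). Dleu2, which overlaps Kcnrg on the opposite strand with 618 and 611 counts, had a log2 ratio of -0.12. Kcnip4 is likewise overlapped by 5730480H06Rik, with 77 and 93 counts. With the strand setting not given, reads of Kcnrg and of Kcnip4 cannot be told from those of the overlapping gene.

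Compared per kb of exon, which allows levels to be set between genes, Kcnip3 had the highest level in both libraries, at 3.04 and 2.63 CPM. Kcnn1 came next at 2.11 and 2.00. Below them in control cells stood Kcnd1 at 1.36, Kcnn4 at 1.09, Kcnj2 at 0.923 and Kcnk3 at 0.915. In knockdown cells Kcnn4 stood at 1.78, above Kcnd1 at 1.49 and Kcnj2 at 1.37, while Kcnk3 was at 0.348 and moved from rank 6 to rank 11. Kcnj16 was the lowest of the 32 in control cells, at 0.0264, and stood at rank 14 in knockdown cells, at 0.168. With 1 library each, neighbours in these orders cannot be told apart beyond counting error.

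**Figure D3:**
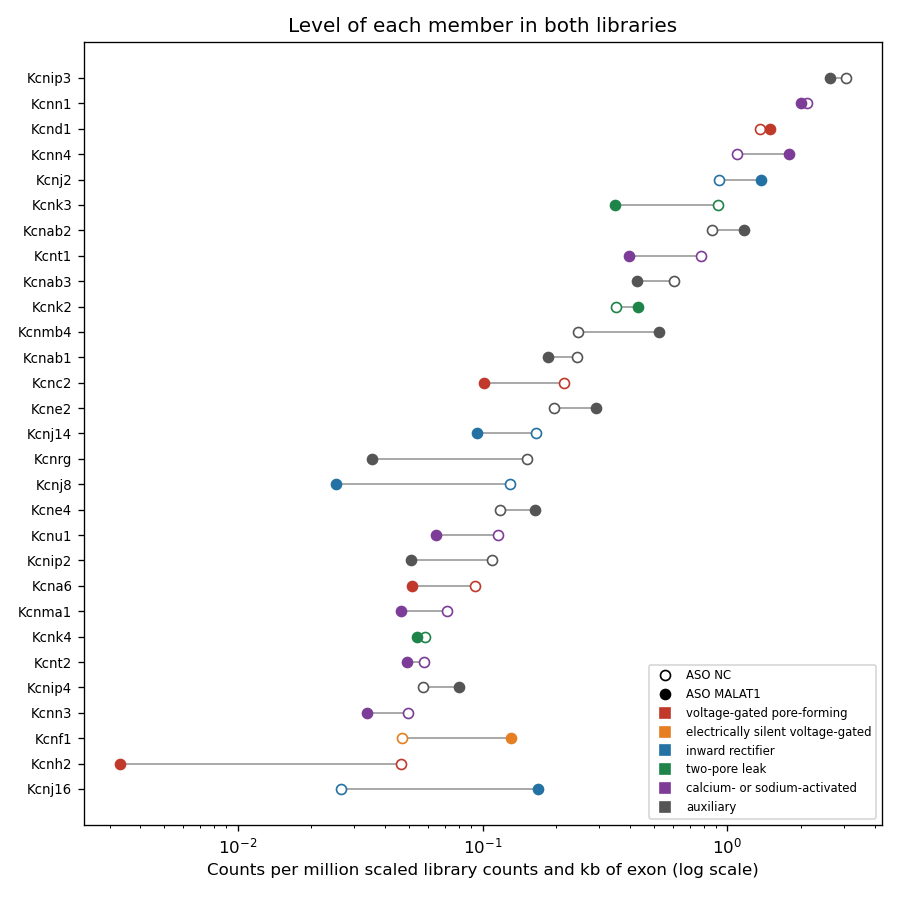
The x axis gives the level of 29 of the 32 genes in CPM per kb of exon on a log scale, with open circles for ASO NC and filled circles for ASO MALAT1, coloured by class, and genes ordered by their control level. Kcnip3 leads in both libraries at 3.04 and 2.63, while Kcnk3 moves left from 0.915 to 0.348 and Kcnj16 right from 0.0264 to 0.168.

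Antisense and overlapping transcripts of these genes were left out. Of the 4 in the table, Kcnq1ot1, the imprinted antisense RNA of the Kcnq1 locus, had 1336 counts with ASO NC and 1112 with ASO MALAT1, a log2 ratio of -0.37 (-0.49 to -0.26), while Kcnq1 itself had 1 and 0 counts. Kcnd3os and Kcnmb4os1 had 0 counts in both libraries, and Kcnmb4os2 had 1 and 0.

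Other genes of potassium transport were expressed at far higher levels. The sodium-potassium pump, which builds the gradient that these channels use, summed to 858 CPM with ASO NC and 1022 CPM with ASO MALAT1 over 9 of 14 listed genes kept, of which 2 were lower and 0 higher by at least 2-fold. Among the lower was Fxyd1, which regulates the pump, with 945 and 495 counts (log2 ratio -1.04). Atp1b1, the main beta subunit, had 20702 and 31021 counts, a log2 ratio of 0.48. Of all genes kept, 6.02% were lower and 3.91% higher by at least 2-fold.

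Of the cation-chloride cotransporters, 7 of 8 were kept and 0 passed 2-fold, with a median log2 ratio of 0.08; the most counted was Slc12a2, with 9759 and 12784 counts. Of the channel partners with other names, 9 of 16 were kept, and Abcc9 alone passed 2-fold, the median being 0.03. Of other potassium-permeable channels, 7 of 9 were kept with a median of -0.10, and 1 passed 2-fold. Letm1, a mitochondrial ion exchanger and the most counted of this list, had 3302 and 2796 counts.

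**Figure D4:**
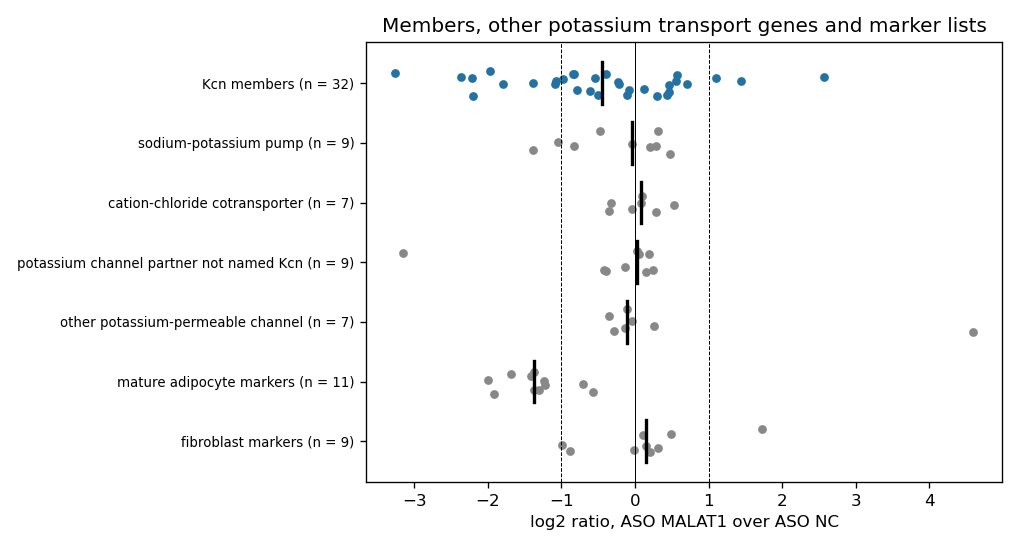
Each point is a kept gene at its log2 ratio of ASO MALAT1 over ASO NC, in rows for the 32 potassium channel genes, 4 lists of other potassium transport genes and the adipocyte and fibroblast markers, with black bars at the medians and dashed lines at 2-fold; vertical scatter within a row has no meaning. The potassium channel genes have a median of -0.45, between the adipocyte markers at -1.37 and the other lists, which lie from -0.10 to 0.15.

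Other channel families were read in the same way. For reference, 3.91% of all genes kept were higher and 6.02% lower by at least 2-fold. Voltage-gated calcium channel subunits had 10 of 26 genes kept, with 2 higher and 0 lower by at least 2-fold and a median log2 ratio of 0.37. Voltage-gated sodium channel subunits had 4 of 13 kept, with 1 higher and 0 lower and a median of 0.12. Chloride channels had 12 of 17 kept, 0 past 2-fold and a median of 0.03, and TRP channels had 13 of 24 kept, with 0 higher and 2 lower and a median of -0.04. Their median summed counts were 821, 138.5, 2642 and 386, all above the 52 of the potassium channel genes, and the difference between the families was not tested.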

How the data were processed

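RNA from C3H10 cells, 1 library per condition, was sequenced by the study after rRNA removal with a directional kit. The authors deposited raw read counts per gene symbol. Per the labels, their processing notes name HISAT2 and the GRCm38 build; the counting tool, annotation, strand setting and treatment of multiply mapped or duplicate reads are not given in the sources used here.

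Here, the totals of 58147539 (control) and 61653549 counts were multiplied by TMM factors of 0.992 and 1.01 (edgeR 4.0.16, R 4.3.3), and genes with 10 or more summed counts were kept. Log2 ratios used a prior count of 0.5, and 95% Clopper-Pearson limits of each gene's share of its counts (scipy 1.17.1) cover counting error only. Reads without molecular identifiers are not independent molecules, so the limits may be too narrow even for that error. With 1 library per group, edgeR's quasi-likelihood test could not be fitted, and no p-value was computed. The ratio was checked on simulated data with counting error only, in which every changed gene had 100 or more summed counts. Changes in genes with fewer counts, and variation between cultures, were not checked. Exon lengths are merged exons in GENCODE M21, matched by symbol for 32 of 32 genes and 88.3% of all genes kept.

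The members, lists and classes were chosen with earlier results of these data known. Genes are named as the most counted of each class or list, those past 2-fold and those nearest the minimum count; the remaining members are named to account for each, and neighbours, overlapping genes and promoter motifs were chosen after values were seen. Alternatives were other scalings (upper quartile, plain totals, size factors of DESeq2 1.42.0), minimum counts, a smaller and a larger prior count, a 1.5-fold line, preset variation between cultures and keeping antisense symbols. Some genes that the rule names are not reported here by name, although they remain in every count and median.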

Additional observations from a re-analysis of the deposited data

How the results depend on the processing

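With upper-quartile factors, plain totals or the size factors of DESeq2, 3 genes were higher and 9 lower by 2-fold as before, and 12 rather than 14 intervals lay under 0, since those of Kcnab1 and Kcnip2 ended closest to it. A prior count of 2 left 8 lower, and a smaller one 9. Each of the 32 genes kept its sign under these settings. The median of all genes kept moved from -0.0029 to at most 0.0192 under these scalings, and the log2 ratio of Malat1 to -1.99. The minimum count mattered more, by construction, since it changes which genes are counted. With at least 1 count, 9 genes were higher and 18 lower by 2-fold. A gene with 1 count in all is past 2-fold by construction, at 1.55 or -1.62. Part of this rise was thus fixed by the setting. Class medians at that minimum were -0.088 for electrically silent subunits, 0.094 for inward rectifiers and -1.39 for tandem-pore channels. With at least 10 counts in each library, 2 were higher and 4 lower past 2-fold, and 5 had an interval above 0 and 9 under it. With at least 100 summed counts, 1 was higher and 3 lower past 2-fold, 4 had an interval above 0 and 8 under it, and class medians were 0.57 for inward rectifiers and -0.21 for auxiliary subunits; electrically silent subunits had no gene left. Voltage-gated pore-forming subunits had a median of -1.79 at the main minimum. It was -0.96 with at least 10 counts in each library and -1.08 with at least 100 summed counts. At 1.5-fold, 4 were higher and 14 lower. The matching shares of all genes were not computed for these other minimums or for 1.5-fold. Adding a preset coefficient of variation between cultures, which these libraries cannot measure, left 5 intervals above and 9 under 0 at 0.1. At 0.2, 3 intervals lay above and 9 below 0. At 0.4, 1 lay above (Kcnj16) and 4 below, Kcnh2 and Kcnj8 among them. No paired analysis was possible because each group has 1 library. Depth limits most of these genes: the median counting interval reached 0.860 on the log2 scale to either side.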
